A study of Homo sapiens with 9 samples.

Results

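Albumin (ALB) and 9 other genes that mark the hepatocyte lineage, the fetal liver or liver cancer were followed in Hep3B cells: TTR, AMBP, AFP, GPC3, H19, DLK1, LIN28B, EPCAM and SOX9. They were found by gene symbol in the table of counts, where all 10 were among the 60683 genes listed. Hep3B is a human hepatocellular carcinoma line, and RNA was sequenced from 9 cultures of it in 3 groups of 3. The groups were vehicle (DMSO) at 20% O2, vehicle at 1% O2 and 32-134D at 1% O2, each kept for 24 hours. 32-134D is a small molecule that leads to loss of the HIF-α subunits, the oxygen-regulated parts of the hypoxia-inducible factors. For the RNA-seq the study names a single dose of 32-134D in its text, which the labels leave out. No culture received the compound at 20% O2. An action of the compound apart from hypoxia therefore cannot be told apart from an action on the response to hypoxia. All cultures came from 1 cell line, grown on multiwell plates and described as biological replicates, so the spread is that between cultures of this line.

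Hepatocytes secrete most plasma proteins. Albumin is the most abundant of them, transthyretin (TTR) carries thyroid hormone and retinol-binding protein, and AMBP is a precursor that is cut into alpha-1-microglobulin and bikunin. Alpha-fetoprotein (AFP) is the albumin relative made by the fetal liver, silenced after birth and made again by many hepatocellular carcinomas, and it lies beside ALB. Glypican-3 (GPC3, a cell surface proteoglycan), the imprinted long noncoding RNA H19, the imprinted Notch-family ligand DLK1 and LIN28B, an RNA-binding protein that blocks maturation of let-7 microRNAs, are likewise high in fetal liver and in many liver tumours. EPCAM, an epithelial adhesion protein, and SOX9, a transcription factor, mark bile duct and liver progenitor cells.

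The promoters of 3 members are shown because ALB and AFP are neighbours whose ratio differed between the vehicle groups, and LIN28B was called in both comparisons that involve hypoxic vehicle. RefSeq promoters on GRCh38.p14, 250 bases before to 50 after each start, were matched for 5 of the 10 members. Capitals mark ACGTG and GCGTG, core letters of the element bound by hypoxia-inducible factors, and TATAAA, letters of the TATA box that helps to place the start of transcription, each searched on both strands, so that CACGT and CACGC are matches on the opposite strand. Across 35116 promoters of this length, 21.4% held ACGTG, 36.5% held GCGTG, 48.4% held either and 11.5% held TATAAA. A match describes letters and is no measured site. The matched promoters not shown, those of AMBP and H19, held 0 ACGTG, 0 GCGTG and 0 TATAAA. ALB (chr4:73404037-73404336, plus strand) had 1 GCGTG, on the opposite strand, after the start, and AFP (chr4:73435971-73436270, plus strand) had TATAAA starting 29 bases before the start. LIN28B had 2 annotated starts, start 1 (chr6:104940715-104941014, plus strand) with 1 ACGTG on the opposite strand and start 2 (chr6:104956857-104957156, plus strand) with CACGTG, which reads as ACGTG on both strands in overlapping letters.
ALB: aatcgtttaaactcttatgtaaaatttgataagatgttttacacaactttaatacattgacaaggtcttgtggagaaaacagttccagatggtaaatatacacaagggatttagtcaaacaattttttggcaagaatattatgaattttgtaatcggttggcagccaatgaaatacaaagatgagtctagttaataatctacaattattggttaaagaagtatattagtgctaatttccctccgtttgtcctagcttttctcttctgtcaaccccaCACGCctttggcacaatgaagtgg
AFP: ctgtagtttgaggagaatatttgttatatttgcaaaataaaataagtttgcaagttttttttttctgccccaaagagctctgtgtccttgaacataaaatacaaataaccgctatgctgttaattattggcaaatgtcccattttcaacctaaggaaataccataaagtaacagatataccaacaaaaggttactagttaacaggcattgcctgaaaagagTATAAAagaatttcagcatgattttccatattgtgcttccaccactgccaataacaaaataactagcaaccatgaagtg
LIN28B start 1: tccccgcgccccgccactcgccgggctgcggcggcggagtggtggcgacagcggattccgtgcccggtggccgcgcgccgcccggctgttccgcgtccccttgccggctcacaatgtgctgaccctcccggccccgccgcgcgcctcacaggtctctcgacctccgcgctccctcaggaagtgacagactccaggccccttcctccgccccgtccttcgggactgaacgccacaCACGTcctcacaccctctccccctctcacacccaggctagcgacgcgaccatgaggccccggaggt
LIN28B start 2: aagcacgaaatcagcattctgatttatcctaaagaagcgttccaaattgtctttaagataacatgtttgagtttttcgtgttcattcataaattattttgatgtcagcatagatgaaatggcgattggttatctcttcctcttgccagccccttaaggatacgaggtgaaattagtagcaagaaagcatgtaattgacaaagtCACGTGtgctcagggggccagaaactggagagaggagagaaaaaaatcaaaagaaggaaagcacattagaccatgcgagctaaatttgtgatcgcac

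The libraries held 6013980 to 40549699 counts, and the members had from 214 counts (TTR) to 329248 counts (ALB) in a library. Counts were scaled to library size, with TMM factors, as CPM and compared with edgeR's quasi-likelihood test over the 22672 genes with at least 10 counts in all. A gene was said to rise or fall where its Benjamini-Hochberg FDR was below 0.05 and its fold change above 1.5. The hypoxia genes CA9 and VEGFA rose at 1% O2, CA9 from 26.8 to 29.0 CPM to between 511 and 631 CPM, and with 32-134D CA9 lay at 50.6 to 61.9 CPM. ANGPTL4, another such gene, had the largest fold change among them, from 2.34 to 2.87 CPM to between 93.3 and 122 CPM (FDR = 1.67e-12). All 6 hepatocyte markers were present. Their summed level, led by ALB, was 17702 to 19122 CPM at 20% O2 and 12898 to 16196 CPM in hypoxic vehicle. With 32-134D it was 11270 to 17504 CPM. Of these markers APOB alone fell in hypoxia, and the other 5 were not called. Of the endothelial markers, KDR, TEK and VWF had 0 counts in every library, as had the leukocyte markers CD3E and MS4A1. Of the fibroblast markers, COL3A1 and DCN never exceeded 3 counts in any group. The summed fibroblast markers, led by PDGFRB, lay at 36.1 to 39.7, 17.2 to 18.5 and 35.5 to 43.4 CPM in the same order of groups, and the leukocyte markers, led by LYZ, at 27.8 to 34.0, 10.6 to 12.8 and 16.0 to 25.05 CPM. The low-count markers COL1A2, PECAM1 and CD14 fell in hypoxia as well (FDR from 0.00329 to 0.0065). Their means went from 1.04, 0.862 and 2.83 CPM to 0.378, 0.211 and 1.21 CPM. COL1A2 lost its call without vehicle at 20% O2 replicate 3 (FDR = 0.164). Of 3 leukocyte markers tested, 1 rose and 2 fell in hypoxia, and of 4 fibroblast markers tested, 0 rose and 3 fell. Of all tested genes, 19.5% rose and 20.3% fell. The part of these markers in the results was not tested.

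Replicate 3 of 32-134D stood apart from the other libraries of its group, and it did so in many of the members. Against the mean of replicates 1 and 2, its CPM was 0.271 times as high for TTR, 0.432 times for AFP, 0.598 times for GPC3, 0.617 times for H19 and 0.647 times for ALB. DLK1 was 2.49 times as high there. SOX9 at 0.677 times, AMBP at 0.943 times, EPCAM at 1.04 times and LIN28B at 1.35 times differed by less than 1.5-fold. So 6 of the 10 members passed 1.5-fold in this library, against 8.46% of the 11515 genes with a mean of at least 100 counts. Of 16 hepatocyte secretory genes with that many counts, 12 were lower by more than 1.5-fold. The log2 fold changes of the members with 32-134D are therefore given with and without this library. For some of the other genes named, changes without it are given as well. No library was a copy of another: between libraries of a group, chi-square divided by its degrees of freedom was at least 1.62, and it reached 36.4 for replicates 1 and 3 of 32-134D.

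**Figure D1:**
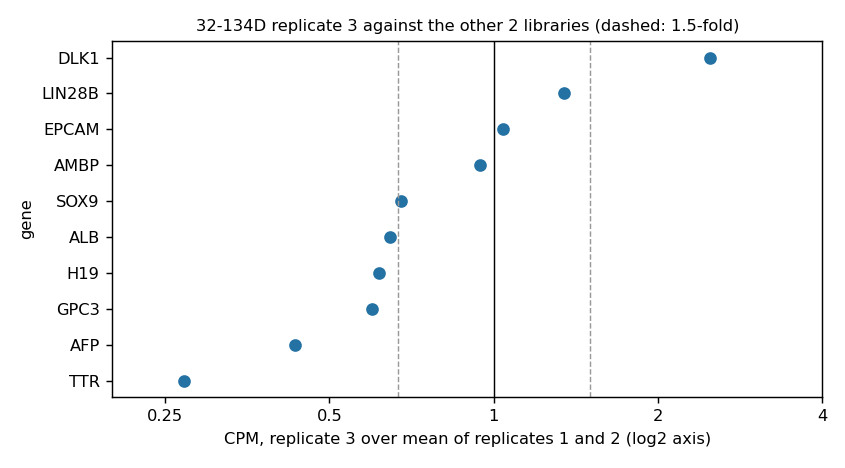
The CPM of each of the 10 genes in 32-134D replicate 3, divided by the mean of replicates 1 and 2, on a log2 axis with dashed lines at 1.5-fold. TTR lies farthest to the left at 0.271 and DLK1 farthest to the right at 2.49.

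Levels between genes were compared as CPM per kilobase of exon, from GENCODE 29 exon lengths. These lengths merge all annotated exons of a gene, and the lengths of the transcripts made in these cells were not measured. The order of genes close in level therefore depends on the lengths used. In vehicle at 20% O2, ALB was first at 2749 ± 103 (SD, n = 3) CPM per kb, followed by H19 at 910 ± 69.5 and AMBP at 561 ± 35.0. GPC3 followed at 272 ± 0.636, EPCAM at 187 ± 21.0 and AFP at 69.1 ± 4.25, so that the RNA of albumin far exceeded that of its fetal relative. SOX9 at 33.4 ± 2.05, TTR at 19.1 ± 0.775, DLK1 at 10.1 ± 0.655 and LIN28B at 9.65 ± 0.796 closed the order. Only DLK1 and LIN28B overlapped among neighbours in it. In hypoxic vehicle EPCAM stood above GPC3, SOX9 and TTR overlapped, and LIN28B was again last at 4.97 ± 0.636 CPM per kb. With 32-134D the order was wider in spread: H19 overlapped AMBP, GPC3 overlapped EPCAM, and AFP, SOX9, DLK1 and TTR each overlapped the next. LIN28B was last there too.

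**Figure D2:**
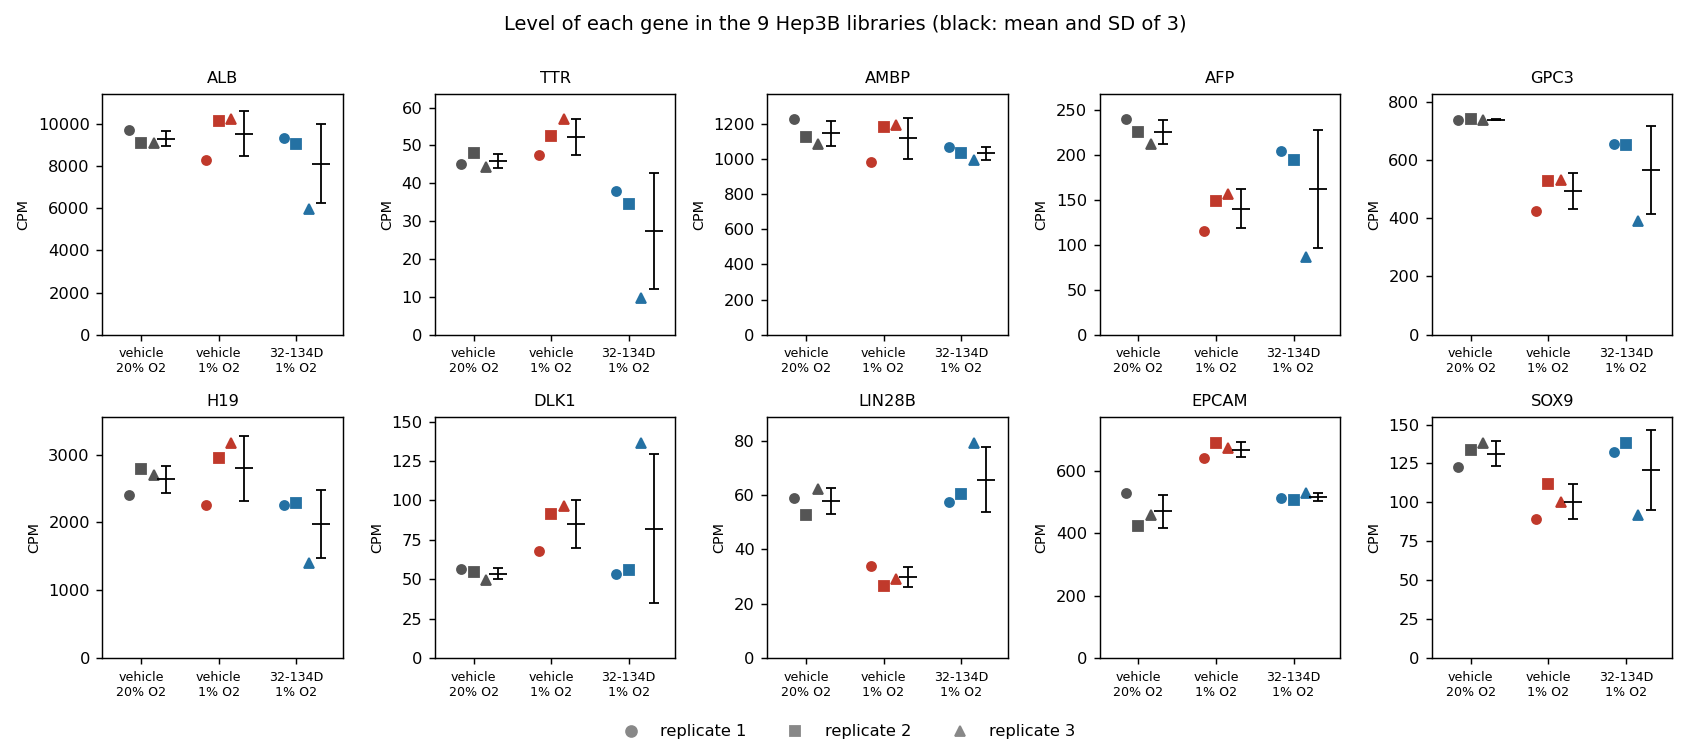
CPM of each gene in each library by group, with the mean and SD of 3 in black and a symbol for each replicate number. LIN28B drops from 52.8 to 62.2 CPM to between 26.4 and 34.0 CPM in hypoxic vehicle and lies at 57.3 to 79.3 CPM with 32-134D.

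The first comparison asked what 24 hours at 1% O2 did to these genes. LIN28B and AFP fell, none of the 10 rose, and ALB, AMBP, TTR and H19 had log2 fold changes between -0.04 and 0.19. With 2 of 10 members falling and 0 rising, the shares stood beside 20.3% of all tested genes that fell and 19.5% that rose, 39.7% together. At an unadjusted edgeR p below 0.05 there were 6 members, a count for which the share of all genes was not computed. DESeq2 called 0 members higher and 3 lower, beside 3848 higher and 4441 lower of 21785 genes. The groups did not overlap for 4 members that were lower and 2 that were higher in hypoxia, against 28.1% and 32.3% of all genes, 60.5% together. The median log2 fold change of the members was 0.0016, and that of all tested genes was 0.0010.

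ALB (ENSG00000163631; GRCh38 chromosome 4, 73397114 to 73421412, plus strand) measured 9686, 9088 and 9078 CPM at 20% O2, and 8287, 10113 and 10208 CPM in hypoxic vehicle. The groups overlapped, replicate 1 of hypoxic vehicle being the lowest of the 6 libraries. Its log2 fold change of 0.04 had a 95% confidence interval of -0.25 to 0.33 (FDR = 0.836), and its sign turned under other scalings. ALB alone held 0.952% to 1.03% of all counts at 20% O2 and 0.771% to 0.922% in hypoxic vehicle.

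TTR (ENSG00000118271; chromosome 18, 31557010 to 31599021) measured 45.1, 47.9 and 44.4 CPM at 20% O2, and 47.4, 52.5 and 56.9 CPM in hypoxic vehicle. The groups overlapped by 1 library, and the log2 fold change was 0.19 (95% confidence interval -0.45 to 0.84, FDR = 0.616). AMBP (ENSG00000106927; chromosome 9, 114060127 to 114078472) measured 1225, 1124 and 1087 CPM at 20% O2 and 981, 1180 and 1191 CPM in hypoxic vehicle. Its groups overlapped, with a log2 fold change of -0.04 (95% confidence interval -0.21 to 0.14, FDR = 0.747).

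AFP (ENSG00000081051; chromosome 4, 73431138 to 73456174) measured 239, 225 and 212 CPM at 20% O2, and 115, 149 and 156 CPM in hypoxic vehicle. Every hypoxic library lay below every normoxic library. The fall was 1.61-fold, with a log2 fold change of -0.69 (SE 0.23, FDR = 0.0186). The call was lost without vehicle at 20% O2 replicate 1 (FDR = 0.0509), without its replicate 2 (FDR = 0.0501) and without hypoxic vehicle replicate 1 (FDR = 0.0946), and the log2 fold change ran from -0.78 to -0.56 over the fits that left out 1 library. Leaving out the divergent 32-134D replicate 3, which enters the shared spread, gave -0.69 with FDR = 2.34e-08.

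Taken within each library, which removes the scaling, AFP counts were 2.47%, 2.47% and 2.33% of ALB counts at 20% O2. In hypoxic vehicle they were 1.39%, 1.47% and 1.53%. The log2 ratio was lower by 0.73 in hypoxia (exact permutation test, 2-sided p = 0.1, the smallest that 3 against 3 allows), and the groups did not overlap. The ratio of TTR to ALB differed by 0.15 (exact permutation p = 0.2) and that of AMBP to ALB by -0.07 (exact permutation p = 0.1). The AMBP to ALB groups did not overlap either, at that much smaller difference. So the neighbours ALB and AFP, 9725 bases apart in GENCODE 29, did not keep a constant ratio in these libraries. With 3 against 3 the permutation test could not have called any such difference.

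**Figure D3:**
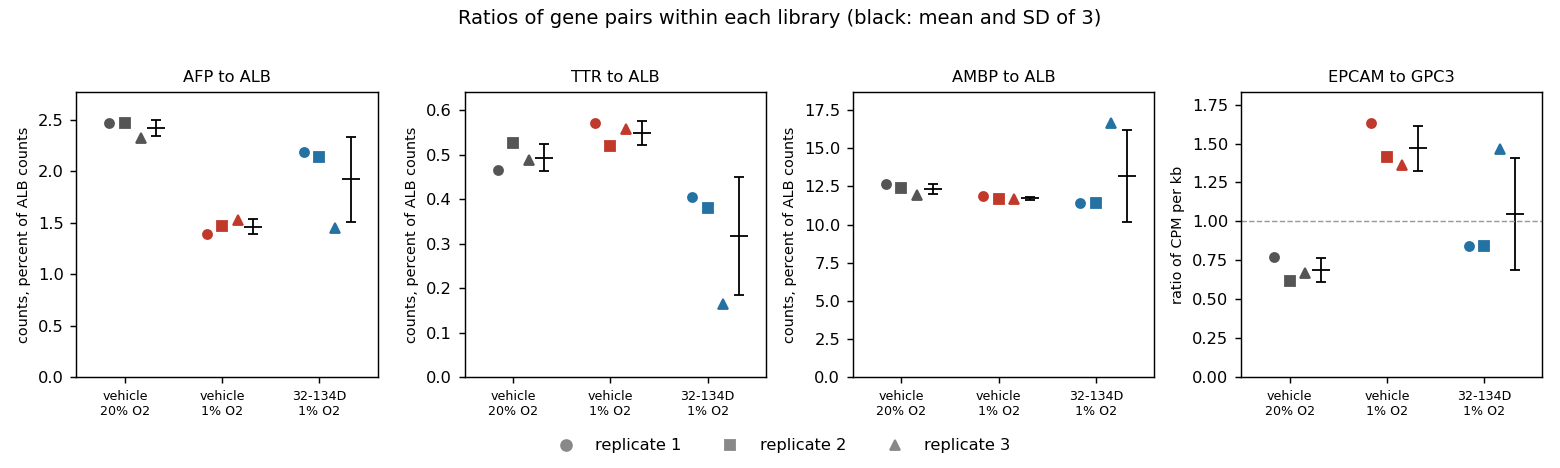
Ratios within each library, with AFP, TTR and AMBP counts as a percent of ALB counts and EPCAM against GPC3 as a ratio of CPM per kb, by group with the mean and SD of 3 in black. The AFP to ALB ratio is 2.33% to 2.47% at 20% O2 and 1.39% to 1.53% in hypoxic vehicle, and the EPCAM to GPC3 ratio lies below 1 in every library at 20% O2 and above 1 in every hypoxic vehicle library.

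GPC3 (ENSG00000147257; chromosome X, 133535745 to 133985895) was nearly constant at 20% O2, with 736, 739 and 737 CPM. In hypoxic vehicle it measured 423, 527 and 533 CPM, all below the normoxic libraries. The 1.49-fold lower level had FDR = 0.00475 but lay just under the fold threshold, with a log2 fold change of -0.58 (SE 0.15). It passed both thresholds with DESeq2, at -0.63, and under several other settings.

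H19 (ENSG00000130600; chromosome 11, 1995176 to 2001470), the member with the second highest level, measured 2409, 2796 and 2700 CPM at 20% O2 and 2264, 2948 and 3178 CPM in hypoxic vehicle. The groups overlapped widely, and the log2 fold change was 0.09 (95% confidence interval -0.25 to 0.43, FDR = 0.677). DLK1 (ENSG00000185559; chromosome 14, 100725705 to 100738224) measured 56.5, 54.5 and 49.7 CPM at 20% O2 and 68.0, 91.5 and 96.4 CPM in hypoxic vehicle. Its groups did not overlap, and it was 1.59-fold higher in hypoxia with FDR = 0.0502, so it was not called. In the fit of only the 2 vehicle groups it was called, with FDR = 1.49e-06 at a log2 fold change of 0.67. It was also called without hypoxic vehicle replicate 1 (FDR = 0.0454) and without 32-134D replicate 1 (FDR = 0.0284), 2 (FDR = 0.0273) or 3 (FDR = 4.35e-07). DLK1 was not called without vehicle at 20% O2 replicate 1 (FDR = 0.124), 2 (FDR = 0.106) or 3 (FDR = 0.159). The same held without hypoxic vehicle replicate 2 (FDR = 0.122) or 3 (FDR = 0.149). Neither DESeq2 (FDR = 0.185) nor scaling to total counts (log2 fold change 0.46, FDR = 0.169) called it.

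LIN28B (ENSG00000187772; chromosome 6, 104936616 to 105083332) measured 58.8, 52.8 and 62.2 CPM at 20% O2. In hypoxic vehicle it measured 34.0, 26.4 and 29.0 CPM, and no hypoxic library reached the lowest normoxic library. The fall was 1.95-fold, with a log2 fold change of -0.96 (SE 0.13, FDR = 1.11e-05), and it was called without any 1 of the 9 libraries, from -1.07 to -0.89.

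EPCAM (ENSG00000119888; chromosome 2, 47345158 to 47387601) measured 528, 425 and 459 CPM at 20% O2 and 642, 692 and 673 CPM in hypoxic vehicle. Every hypoxic library was above every normoxic library, and the 1.42-fold higher level had FDR = 7.08e-05 without reaching the fold threshold. SOX9 (ENSG00000125398; chromosome 17, 72121020 to 72126420) measured 122, 134 and 138 CPM at 20% O2 and 89.2, 112 and 101 CPM in hypoxic vehicle. Its groups did not overlap either, in the opposite direction, and the 1.31-fold lower level had FDR = 0.0195, also short of the fold threshold. That FDR rose above 0.05 without vehicle at 20% O2 replicate 2 (0.0565) or 3 (0.0746) or hypoxic vehicle replicate 1 (0.0956). With scaling to total counts SOX9 passed both thresholds, at a log2 fold change of -0.60 (FDR = 0.000748). In the main fit the progenitor markers thus differed in opposite directions, neither by 1.5-fold.

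Within each library the ratio of EPCAM to GPC3, per kb, was 0.773, 0.618 and 0.671 at 20% O2 and 1.63, 1.41 and 1.36 in hypoxic vehicle. It was 0.845 and 0.840 in 32-134D replicates 1 and 2, and 1.46 in replicate 3.

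**Figure D4:**
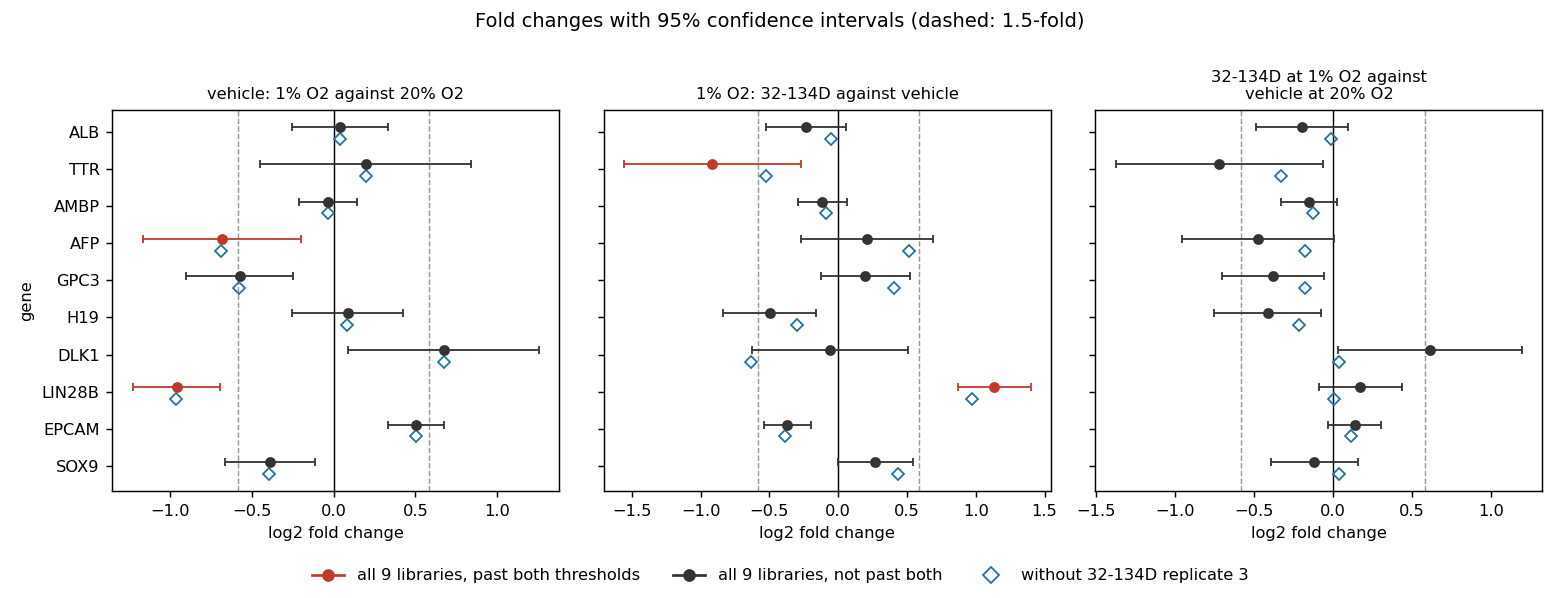
Log2 fold changes of the 10 genes with 95% confidence intervals in the 3 comparisons from all 9 libraries, red where both thresholds were passed, with open diamonds for the fit without 32-134D replicate 3 and dashed lines at 1.5-fold. In the comparison of 32-134D with vehicle the diamonds of AFP at 0.51 and DLK1 at -0.63 lie away from the points at 0.21 and -0.06.

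The second comparison asked what 32-134D did at 1% O2, and it shares the hypoxic vehicle libraries with the first, so a high or low vehicle library enters both. LIN28B rose and TTR fell, and the other 8 members were not called. The shares, 1 of 10 in each direction, stood beside 16.2% of all genes that rose and 13.7% that fell, 29.9% together. The groups did not overlap for 1 member that was higher and 2 that were lower, against 25.4% and 30.8% of all genes, 56.1% together. The median log2 fold change was -0.09 over the members and -0.01 over all tested genes.

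LIN28B measured 57.3, 60.6 and 79.3 CPM with 32-134D, above each of the hypoxic vehicle libraries. The 2.20-fold rise (log2 fold change 1.13, SE 0.12) had FDR = 3.08e-06. Without replicate 3, the highest library, it was 0.98 with FDR = 2.88e-10, so this result did not rest on the divergent library.

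TTR measured 37.9, 34.5 and 9.79 CPM with 32-134D, all below hypoxic vehicle, but replicate 3 was far lower than the others. The log2 fold change was -0.92 (SE 0.30, FDR = 0.0205), and without replicate 3 it was -0.53 with FDR = 6.43e-06, under the fold threshold. The FDR also rose above 0.05 without vehicle at 20% O2 replicate 1 (0.052), without hypoxic vehicle replicate 2 (0.0513) or 3 (0.087), with DESeq2 (0.111) and in the fit of the 2 groups alone (0.0872). TTR counts were 0.405%, 0.380% and 0.165% of ALB counts with 32-134D, against 0.572%, 0.519% and 0.557% in hypoxic vehicle, a log2 difference of -0.90 (exact permutation p = 0.1, the smallest possible) that was -0.48 without replicate 3 (exact permutation p = 0.1).

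ALB measured 9338, 9061 and 5948 CPM with 32-134D, so replicates 1 and 2 lay within the range of hypoxic vehicle and replicate 3 below it. The log2 fold change was -0.23 (FDR = 0.181) and -0.05 without replicate 3 (FDR = 0.606). AMBP measured 1067, 1036 and 991 CPM, within the hypoxic vehicle range in all libraries, with a log2 fold change of -0.12 (95% confidence interval -0.29 to 0.06, FDR = 0.279), or -0.09 without replicate 3 (FDR = 0.376).

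For AFP, GPC3 and DLK1 replicates 1 and 2 of 32-134D lay on one side of the hypoxic vehicle libraries and replicate 3 on the other. AFP measured 204, 194 and 86.0 CPM, with replicate 3 as the lowest of all 9 libraries. Its log2 fold change was 0.21 with all libraries (FDR = 0.476) and 0.51 without replicate 3 (FDR = 1.86e-05), still short of 1.5-fold. The AFP to ALB ratio was 2.19%, 2.14% and 1.45%, a log2 difference of 0.37 from hypoxic vehicle (exact permutation p = 0.3), and without replicate 3 it was 0.57 (exact permutation p = 0.1). GPC3 measured 656, 650 and 390 CPM, with a log2 fold change of 0.19 (FDR = 0.317), or 0.40 without replicate 3 (FDR = 7.20e-05).

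DLK1 measured 53.6, 56.1 and 137 CPM with 32-134D, so replicates 1 and 2 lay below the hypoxic vehicle libraries and replicate 3 above them. The log2 fold change was -0.06 (FDR = 0.874), with a sign that turned under other scalings, and without replicate 3 DLK1 fell, at -0.63 with FDR = 5.48e-06. SOX9 measured 132, 138 and 91.7 CPM, of which replicate 3 lay inside the range of hypoxic vehicle and the others above it, with a log2 fold change of 0.27 (FDR = 0.0981), or 0.43 without replicate 3 (FDR = 4.26e-05). For these 4 genes the size of the difference, and for DLK1 the call, changed with that library.

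H19 measured 2253, 2282 and 1399 CPM with 32-134D, overlapping hypoxic vehicle only at its replicate 1. The 1.41-fold lower level had FDR = 0.0176, and without replicate 3 the log2 fold change moved from -0.50 to -0.30 (FDR = 0.00761). Without hypoxic vehicle replicate 1 or 32-134D replicate 2 it passed the fold threshold as well, at -0.63 and -0.61. The FDR rose above 0.05 without hypoxic vehicle replicate 2 (0.0648) or 3 (0.156, at -0.33), in the fit of the 2 groups alone (0.0838) and with scaling to total counts (0.112). EPCAM measured 515, 508 and 531 CPM, tightly grouped and below every hypoxic vehicle library. It was 1.29-fold lower (FDR = 0.00132) and replicate 3 made little difference to it, the log2 fold change being -0.37 with and -0.39 without that library. With scaling to total counts it was -0.18 (FDR = 0.0732).

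The third comparison set 32-134D at 1% O2 against vehicle at 20% O2, and it shares a group with each of the others. By edgeR 0 of the 10 members were called, against 3% of all tested genes that were higher and 0.516% that were lower, 3.52% together. At an unadjusted edgeR p below 0.05 there were 4 members, again without a share of all genes to set beside them. DESeq2 called 0 members, beside 700 higher and 145 lower of 14313 genes. The groups did not overlap for 5 members that were lower, TTR, AMBP, AFP, GPC3 and H19, and 0 that were higher, against 12.8% and 17% of all genes, 29.8% together. The log2 fold changes were -0.72 for TTR, -0.48 for AFP, -0.41 for H19, -0.38 for GPC3 and 0.61 for DLK1, with FDR values from 0.12 to 0.208. Without replicate 3 they were -0.33 for TTR, -0.18 for AFP, -0.22 for H19, -0.18 for GPC3 and 0.04 for DLK1, closer to 0 in each case. The FDR of TTR was then 0.0121, and those of the other 4 ran from 0.136 to 0.877. LIN28B was at 0.17 with a 95% confidence interval of -0.09 to 0.43, and at 0.0073 without replicate 3 (FDR = 0.977). EPCAM was at 0.14 (FDR = 0.322) and at 0.11 without that library (FDR = 0.392). SOX9 was at -0.12 (FDR = 0.634) and turned to 0.04 without it (FDR = 0.828). ALB was at -0.19 (FDR = 0.424), or -0.02 without it (FDR = 0.936), and AMBP at -0.15 (FDR = 0.29), or -0.12 without it (FDR = 0.352).

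The genes beside the members in the genome and in their pathways were taken from lists of related genes. The counts of calls in these lists stand beside all tested genes, of which 19.5% rose and 20.3% fell in hypoxia. With 32-134D, 16.2% of all tested genes rose and 13.7% fell. In the albumin family, AFM, which encodes afamin and lies 25508 bases beyond AFP, fell from 6.10, 6.60 and 6.42 CPM at 20% O2 to 0.928, 1.70 and 1.42 CPM in hypoxic vehicle, 4.84-fold (FDR = 8.70e-05). With 32-134D it measured 4.40, 4.95 and 1.33 CPM and rose 2.77-fold over hypoxic vehicle (FDR = 0.00351), the low library again being replicate 3, without which the log2 fold change went from 1.47 to 1.85. GC, the vitamin D-binding protein gene, measured 788 to 1062 CPM in the vehicle libraries and had a log2 fold change of -0.20 in hypoxia (FDR = 0.354). Of these 4 relatives, then, AFP and AFM fell in hypoxia and ALB and GC were not called.

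H19 shares an imprinted domain with IGF2, the gene of a fetal growth factor, which lies 127641 bases away and is normally expressed from the other parental copy. IGF2 measured 954, 1383 and 1424 CPM at 20% O2, and it fell to 235, 279 and 306 CPM in hypoxic vehicle, 4.58-fold (FDR = 4.01e-07). With 32-134D it measured 1002, 1012 and 542 CPM, a 3.12-fold rise (FDR = 1.09e-05). The groups at 20% and 1% O2 were fully separate for IGF2, whereas those of H19 overlapped. KCNQ1OT1, a noncoding RNA of the neighbouring imprinted domain, likewise fell 5.04-fold (FDR = 7.51e-08) and rose 3.45-fold with 32-134D (FDR = 1.81e-06). In the domain of DLK1, MEG3 stayed at or below 0.686 CPM in all libraries, and DIO3, a thyroid hormone-inactivating enzyme, rose from at most 0.645 CPM to 1.91, 2.92 and 4.01 CPM in hypoxic vehicle (log2 fold change 3.15, FDR = 0.00212). DIO3 measured 0.709, 1.08 and 4.25 CPM with 32-134D, with replicate 3 highest as for DLK1, and it fell without that library (log2 fold change -1.71, FDR = 3.53e-05). Of the 7 genes in this list, 1 rose and 3 fell in hypoxia, and 2 rose and 0 fell with 32-134D, or 1 fell without replicate 3.

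For LIN28B the list held partners, let-7 processing factors and let-7 targets. Of its 12 genes, 1 rose and 7 fell in hypoxia, with a median log2 fold change of -0.80, and 8 rose and 0 fell with 32-134D, with a median of 0.77; with scaling to total counts, 0 rose in hypoxia. HMGA2, a chromatin protein and a known let-7 target, fell from 188, 192 and 197 CPM to 38.4, 48.5 and 49.2 CPM in hypoxic vehicle, 4.25-fold (FDR = 5.35e-10). With 32-134D it measured 163, 162 and 195 CPM, a 3.83-fold rise (FDR = 3.60e-09). IGF2BP1, an oncofetal RNA-binding protein and let-7 target, fell 1.57-fold (FDR = 9.81e-06) and rose 1.51-fold (FDR = 3.49e-05), and it dropped under the fold threshold without vehicle at 20% O2 replicate 3 and 32-134D replicate 2, respectively. MIRLET7BHG, the host transcript of let-7 microRNAs, fell from 2.34 to 3.45 CPM to between 0.377 and 0.769 CPM (FDR = 5.02e-06) and rose to 1.65 to 1.68 CPM with 32-134D (FDR = 0.000285), so both LIN28B and this host RNA were lower in hypoxia. The paralog LIN28A stayed at or below 1.10 CPM, and its rise with 32-134D (FDR = 0.0491) was lost without 32-134D replicate 3 (FDR = 0.0842) or 2, without hypoxic vehicle replicate 2 or 3, or without vehicle at 20% O2 replicate 3. Mature microRNAs were not measured.

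Among the 5 other glypicans 0 rose and 3 fell in hypoxia, and 2 rose and 0 fell with 32-134D. GPC6 fell from 146, 146 and 148 CPM to 30.3, 39.0 and 36.6 CPM, 4.16-fold (FDR = 3.64e-10), and measured 127, 125 and 147 CPM with 32-134D, a 3.78-fold rise (FDR = 2.38e-09). GPC5 fell 1.96-fold in hypoxia (FDR = 0.00143). With 32-134D its log2 fold change was 0.49 (FDR = 0.0732). Without 32-134D replicate 3 GPC5 rose, at 0.76 (FDR = 9.82e-07). With scaling to total counts, 4 glypicans in place of 2 rose with 32-134D.

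**Figure D5:**
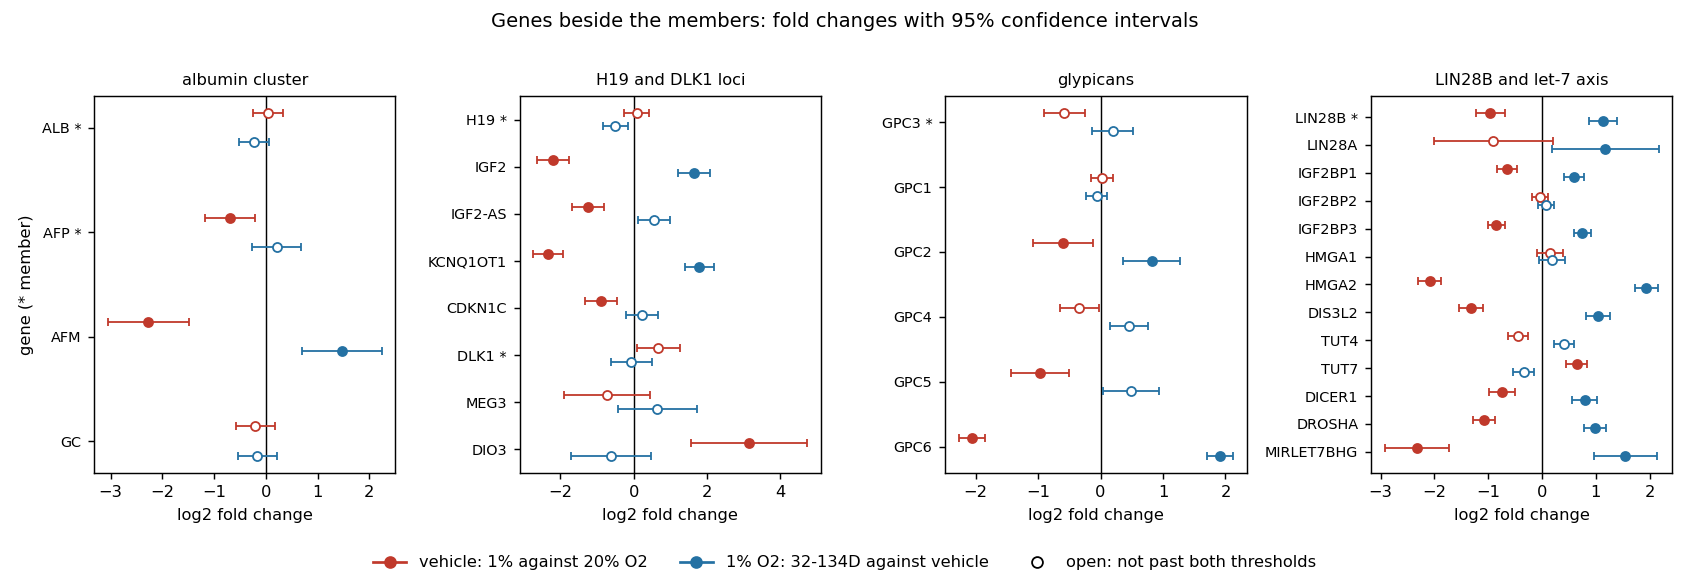
Log2 fold changes with 95% confidence intervals for members (starred) and genes of their families and loci, red for hypoxia and blue for 32-134D, filled where both thresholds were passed. AFM at -2.27 and IGF2 at -2.20 lie far to the left of ALB at 0.04 and H19 at 0.09 in hypoxia.

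Of 10 regulators of AFP, 4 rose and 3 fell in hypoxia, and 2 rose and 4 fell with 32-134D. ZHX2, a known repressor of AFP, H19 and GPC3 in the adult liver, rose from 41.5, 49.0 and 53.2 CPM to 87.8, 98.9 and 94.1 CPM in hypoxic vehicle, 1.95-fold (FDR = 1.50e-06). With 32-134D it measured 49.6, 52.4 and 61.3 CPM and fell 1.72-fold (FDR = 1.45e-05). ZBTB20, another repressor of AFP after birth, moved the opposite way, with a 1.80-fold fall in hypoxia (FDR = 1.64e-05) and a 1.70-fold rise with 32-134D (FDR = 4.66e-05). Among activators of liver genes, CEBPA fell 3.05-fold (FDR = 0.000213), FOXA3 rose 2.72-fold (FDR = 8.39e-09) and HNF4A had a log2 fold change of -0.11 (FDR = 0.27). CEBPA was lowest, at 111 CPM against 364 and 347 CPM, in 32-134D replicate 3. The part of any of these regulators in the levels of the members was not tested.

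Secreted proteins around ALB, TTR and AMBP were mixed. Of 20 other hepatocyte secretory genes, 1 rose and 4 fell in hypoxia, beside 19.5% and 20.3% of all tested genes. The share that fell was thus near that of all genes. With 32-134D, 2 rose and 5 fell, beside 16.2% and 13.7% of all tested genes. These counts became 4 and 2 without replicate 3. APOB, the structural protein of low-density lipoprotein, fell from 3256, 4948 and 5256 CPM to 423, 377 and 416 CPM, 11.1-fold (FDR = 7.60e-10), and rose to 3884, 3968 and 2707 CPM with 32-134D. Haptoglobin (HP) was at or under 3 counts in each hypoxic vehicle library and below 0.5 CPM in all libraries, so no fold is given. With 32-134D HP was not called (FDR = 0.0539), but without 32-134D replicate 3 it was called higher (FDR = 0.00257). Of 8 partners of AMBP and TTR, 0 rose and 5 fell in hypoxia. ITIH2, a heavy chain that is joined to bikunin from AMBP, fell from 566, 617 and 605 CPM to 157, 198 and 199 CPM, 3.23-fold (FDR = 2.66e-05), and measured 510, 499 and 203 CPM with 32-134D. ITIH4 was at or under 3 counts in hypoxic vehicle, and no fold is given. AMBP, the bikunin precursor, had a log2 fold change of -0.04 beside that of -1.69 for ITIH2.

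Of 17 tested genes of the biliary and progenitor list, 0 rose and 5 fell in hypoxia, and 5 rose and 1 fell with 32-134D; with scaling to total counts 8 fell in hypoxia. LGR5, a receptor of the Wnt pathway and a progenitor marker, fell from 46.3, 40.4 and 49.5 CPM to 3.87, 4.10 and 6.15 CPM, 9.72-fold (FDR = 2.63e-09), and measured 37.1, 39.5 and 56.6 CPM with 32-134D. SPP1, the gene of osteopontin, lay at 0.942 to 1.15 CPM at 20% O2 and at or under 3 counts in hypoxic vehicle. KRT8, a keratin of all hepatic epithelium, had a log2 fold change of -0.06 (FDR = 0.566).

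Reads of opposite strands could not be separated, since the strand setting of the counting is not given in the sources used here. SOX9-AS1, which overlaps SOX9 on the other strand, had 3.25% as many counts as SOX9 and fell 2.61-fold in hypoxia (FDR = 0.000124), and it rose 2.01-fold with 32-134D (FDR = 0.00177). LIN28B-AS1 had 0.149% as many counts as LIN28B, and EPCAM-DT, which lies within 5000 bases of EPCAM, 0.343% as many. IGF2-AS fell 2.37-fold in hypoxia (FDR = 0.000115), beside the fall of IGF2. MIR675, the microRNA gene inside H19, had 0 counts.

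The protein-coding genes with profiles most like ALB over the 9 libraries, among those with a mean of at least 100 counts, were FDFT1 (Pearson r = 0.98 of log2 CPM), ACOT7 (r = 0.98) and TMEM139 (r = 0.98). Their log2 fold changes in hypoxia were 0.0081, -0.07 and 0.08. For AFP they were NRM (r = 0.99), HPX (r = 0.98) and GPC3, itself a member (r = 0.98). HPX, the heme carrier hemopexin, fell in hypoxia with a log2 fold change of -0.91 (FDR = 0.0148), a call lost without hypoxic vehicle replicate 1. With 32-134D HPX was at 0.22 (FDR = 0.559), and without 32-134D replicate 3 it rose, at 0.59 (FDR = 2.73e-06). Among the members, AFP and GPC3 were closest (r = 0.98), then TTR and H19 (r = 0.94) and ALB and TTR (r = 0.93). These correlations describe 9 libraries that share 3 groups and 1 divergent library.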

How the data were processed

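RNA-seq was run on 9 Hep3B cultures in 3 groups of 3. The authors deposited raw counts per Ensembl gene, made by checking reads with FastQC, trimming with Bbduk, mapping with STAR to GRCh38 with Ensembl 100 annotation and counting with featureCounts; tool versions and strand setting are not given in the sources used here, and 0 columns lacked a sample. The authors used DESeq2 and a filter of at least 10 counts. Here, edgeR 4.0.16 in R 4.3.3 fitted the 9 libraries together (TMM, quasi-likelihood F test, Benjamini-Hochberg), and DESeq2 1.42.0 was an alternative. The common biological coefficient of variation was 10.5%. Ratios within a library used counts plus 0.5 and exact 2-sided permutation tests. The procedure was tested on simulated counts.

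The members and gene lists were chosen with earlier results of these data known. A gene of the list of AFP regulators is not reported here and was left out of its counts. Named genes, marker and hypoxia lists included, were the 10 members, in each list the 2 with the largest called change in hypoxia and the 1 with the highest mean CPM, AFM, GC, IGF2, MEG3, LIN28A, ZHX2, ZBTB20, transcripts overlapping members, and the 3 genes most like ALB and AFP. Positions and exon lengths came from GENCODE 29 on GRCh38, which held 58496 of the listed genes, and promoters from RefSeq on GRCh38.p14. Alternatives were other scalings, filters and fold thresholds, a fit of 2 groups, a block for the replicate number, and fits without 1 library. The labels name DMEM/F12 medium, and the methods of the study high-glucose DMEM. The lowest count of a member was 214, for TTR in 32-134D replicate 3, where its CPM was low as well. In the library with the fewest counts, vehicle at 20% O2 replicate 2, TTR had 305 counts, LIN28B 336 and DLK1 347. Counts of 3 or fewer were taken as the floor, which covers counting error only.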

Additional observations from a re-analysis of the deposited data

How the results depend on the processing

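Of the tests of single members, 424 kept direction and call, 22 gained a call, 11 lost it and 23 turned sign; with 3 libraries a group, 1 library can decide a call. Scaling to total counts moved the median log2 fold change of all genes by -0.21 in hypoxia and 0.19 with 32-134D, and the share of calls that were higher from 49.0% to 34.5% and from 54.2% to 72.0%. With that scaling LIN28B stayed lower in hypoxia, at -1.17, and higher with 32-134D, at 1.32. These values include the shift, and the main fit gave -0.96 and 1.13. Members called higher in hypoxia went from 0 to 1 with no filter, in the fit of 2 groups, under the replicate block and with no fold threshold, and ran from 0 to 1 over the fits leaving out 1 library. Members called lower in hypoxia went from 2 to 4 with total counts or no fold threshold and to 0 above 2-fold, and ran from 1 to 3 without 1 library. Members lower with 32-134D went from 1 to 0 with total counts, with DESeq2, with at least 10 counts in every library, in the fit of 2 groups and above 2-fold, to 3 with no fold threshold, and ran from 0 to 2 without 1 library; those higher stayed at 1 in those fits. Against vehicle at 20% O2, members higher and members lower each went from 0 to 1 with no filter, and ran from 0 to 1 and from 0 to 0 without 1 library. The cause was not tested.

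In hypoxia the log2 fold change turned sign for ALB (RLE -0.0098, DESeq2 -0.0098, total counts -0.18, at least 10 counts in every library -0.072, and -0.021 to 0.13 without 1 library), for TTR (total counts -0.0205), for H19 (total counts -0.13, at least 10 counts -0.024, and -0.031 to 0.22 without 1 library) and for AMBP (-0.092 to 0.048 without 1 library). With 32-134D it turned for AMBP (total counts 0.074) and DLK1 (RLE 0.0011, total counts 0.13, DESeq2 0.0061, at least 10 counts 0.031, fit of 2 groups 0.0056, and -0.63 to 0.23 without 1 library). Against vehicle at 20% O2, SOX9 ran from -0.23 to 0.041. The AMBP to ALB difference ran from -0.037 to 0.24 with 32-134D and from -0.11 to 0.16 against vehicle at 20% O2 without 1 library, both turning without 32-134D replicate 3. For same-numbered replicates, 9 pairs had deviations from the group means correlated from -0.21 to 0.085, 0 of them above 0.1. The 18 other pairs ran from -0.19 to 0.25, 6 of them above 0.1. With deviations taken within groups of 3, these values cannot settle whether cultures were paired. The replicate block called 1 member higher in hypoxia (DLK1, 0.65, FDR = 0.0278) and changed no other count of members. For the gene lists, scaling to total counts and leaving out 32-134D replicate 3 or vehicle at 20% O2 replicate 2 were chosen after seeing the data; 242 counts stayed within 1.5 times and 28 did not.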

Other observations

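Of 15 other oncofetal genes of hepatocellular carcinoma, 4 rose and 8 fell in hypoxia, beside 19.5% and 20.3% of all tested genes, with a median log2 fold change of -0.72, and 8 rose and 3 fell with 32-134D, beside 16.2% and 13.7%, with a median of 0.61; with scaling to total counts 0 fell with 32-134D. DKK1, a secreted inhibitor of Wnt signalling and a serum marker of this cancer, fell from 1707, 1427 and 1495 CPM to 255, 277 and 334 CPM in hypoxic vehicle, 5.35-fold (FDR = 1.45e-09). With 32-134D it measured 1183, 1144 and 843 CPM, 3.66-fold above hypoxic vehicle (FDR = 4.23e-08). TSPAN8, a tetraspanin of the cell surface, fell from 2.44, 2.83 and 2.49 CPM to 0.318, 0.377 and 0.242 CPM, 8.15-fold (FDR = 3.88e-06), and measured 2.27, 1.85 and 0.915 CPM with 32-134D. IGF2 and HMGA2 belong to this list and to others above.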
